A study of Mus musculus with 4 samples.

Results

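The genes described here are those whose symbols begin with Ube2, the family that encodes the ubiquitin-conjugating (E2) enzymes, with Ube2c and Ube2o left out. They are 32 of the 13831 gene symbols in a deposited table of single-molecule poly(A) tail lengths from mouse embryonic stem cells. All cells were of the J1 line, grown in serum with LIF, a cytokine that holds them in the undifferentiated state, and they received no treatment. They were either wild type (WT, 2 libraries, here WT 1 and WT 2) or knocked out for Mov10, an RNA helicase (KO, 2 libraries, KO 1 and KO 2), and the study compared their tail lengths by direct RNA nanopore sequencing. The labels do not say which cultures or clones the libraries came from, so the p-values rest on the spread between these libraries, which may be technical. For the tail length of a gene that spread was pooled over genes with like read number, so a gene's own spread does not enter its p.

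Ubiquitin is a small protein that is attached to other proteins to mark them for destruction, relocation or assembly. An activating (E1) enzyme loads ubiquitin with the use of ATP, and an E2 enzyme takes it over on a cysteine of its catalytic domain. A ligase (E3) brings the loaded E2 to the substrate, and with many ligases, though not all, the E2 largely sets which kind of ubiquitin chain is built. Some members carry ubiquitin-like proteins in its place: Ube2m and Ube2f carry NEDD8, and Ube2l6 carries ISG15. The poly(A) tail, the subject of the measurement, is added to a messenger RNA in the nucleus, shortens in the cytoplasm, and bears on how long the RNA lasts and how well it is translated.

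Not all symbols caught by the name stand for working E2 enzymes. Ube2v1 and Ube2v2 encode E2 variants without the catalytic cysteine, which act as partners of Ube2n. Ube2cbp, for which the RefSeq gene table gives the synonym Ube3d, is named as an E3 ligase, and Ube2d-ps is listed there as a noncoding RNA. Reads were found in all 4 libraries for 28 of the 32 symbols. Ube2e2 (9 reads in all), Ube2cbp (5), Ube2dnl1 (2) and Ube2l6 (1) were missing from at least 1 library. The test of tail length, which asked for at least 20 reads in each library, took 14 members, and the test of read number, which asked for a mean of at least 10 reads, took 24.

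The libraries held from 351133 to 683239 reads with a tail length above 0, and Mov10 itself had 26 and 14 reads in WT against 0 and 1 in KO. Of 12 stem cell markers all had reads in each library, with a summed level from 10341 to 10344 reads per 1000000 reads (RPM) in WT and from 7611 to 8886 RPM in KO. In the test of read number 11 of them had a log2 change, KO minus WT, below 0 and 1 above, where 49.4% of all genes were above. For 7 the KO libraries lay below the WT libraries without overlap, where 20.5% of all genes did so. An adjusted p under 0.05 was reached by 0 of the 12. The part of this difference, and of that in germ layer markers, in the results below was not tested. Of 8 fibroblast or feeder markers, Col1a1, Col1a2, Col3a1, Dcn, Lum and Pdgfra had no read, while the other 2 had reads in each library and summed to 232.1 and 150.9 RPM in WT and 248.8 and 274.4 RPM in KO. The 8 primitive endoderm markers summed to between 13.95 and 29.6 RPM. The 8 germ layer markers, of which Hand1, Sox1 and T had no read, summed to 36.4 and 82.6 RPM in WT and to 125.9 and 95.3 RPM in KO.

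The family was read at a low level. Of all reads, WT 1 gave 0.366% to members (exact 95% binomial interval 0.349 to 0.385%) and WT 2 gave 0.351% (0.332 to 0.371%), while KO 1 gave 0.331% (0.317 to 0.345%) and KO 2 gave 0.372% (0.354 to 0.390%). The mean was 0.359% ± 0.0109 for WT and 0.351% ± 0.0289 for KO (SD, n = 2 each), and the WT libraries lay inside the range of the KO libraries. The interval of KO 1 lay below those of WT 1 and KO 2, so the libraries differed beyond counting error. Intervals here and below cover counting error only. In direct RNA sequencing a molecule gives 1 read from its tail end, so levels are set against each other without division by length.

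A few members held most of these reads. Ube2s (ENSMUSG00000060860.8), the E2 with which the anaphase-promoting complex extends ubiquitin chains in mitosis, had 1722 reads. WT libraries held it at 1017 and 939.8 RPM and KO libraries at 761.1 and 988.3 RPM, and it made up from 23.0 to 27.8% of the family's reads in a library. Ube2d3 (ENSMUSG00000078578.9), a broadly used partner of RING and HECT ligases, followed with 432.3 and 467.1 RPM in WT and 443.5 and 507.0 RPM in KO. The lowest library of Ube2s lay above the highest of Ube2d3, and the lowest of Ube2d3 above the highest of every member below it.

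From the third place on the levels of neighbours overlapped. Ube2l3, which works with HECT ligases and Parkin, had 188.8 and 273.4 RPM in WT and 270.8 and 337.2 RPM in KO. Ube2n, which builds non-degradative chains in DNA damage and immune signalling, had 207.0 and 148.1 RPM in WT and 153.7 and 220.9 RPM in KO. For both of these members the WT and KO libraries overlapped, as the plot of read levels shows. Ube2d2a, a near relative of Ube2d3, was steadier, at 177.5 and 162.3 RPM in WT and 172.7 and 158.1 RPM in KO. The 6 most read members together made up from 60% to 65.5% of the family's reads.

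**Figure D1:**
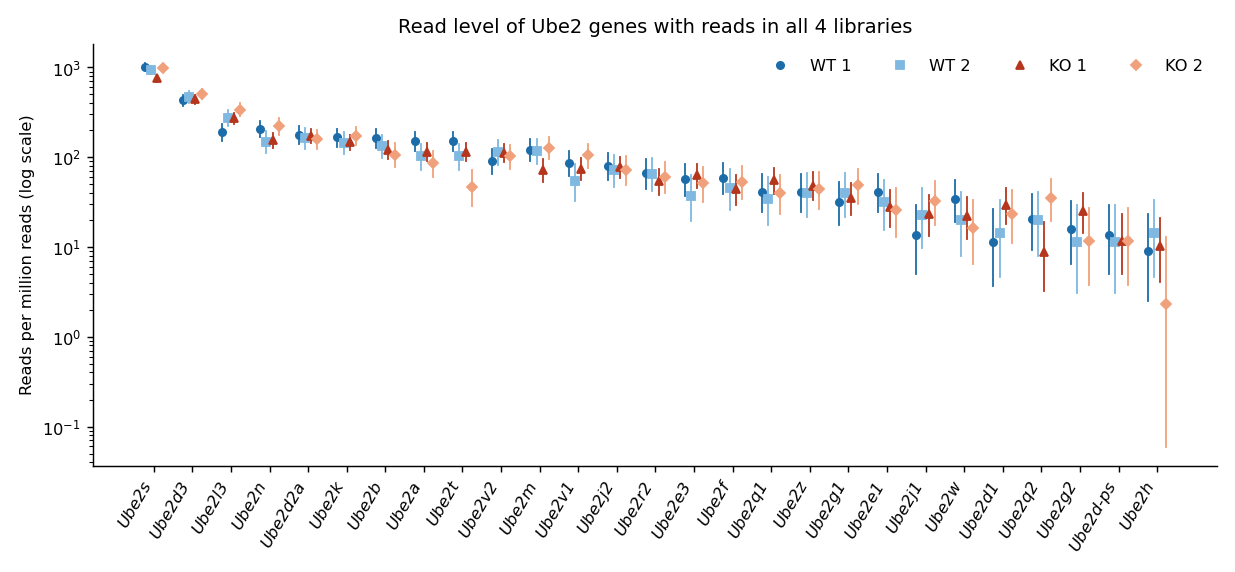
Read level of 27 of the 28 Ube2 genes with reads in all 4 libraries, ordered by total reads, in RPM on a log axis; each point is a library and each bar its exact 95% binomial interval. Ube2s stands above all others at 761.1 to 1017 RPM, and the intervals widen to the right, where a library holds few reads of a gene.

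Below them the other members came down in small steps, with 4-library means in RPM. Ube2k, which builds degradative chains, had a mean of 158.0 RPM, and the RAD6 homologs Ube2b and Ube2a, which act in DNA damage tolerance and on histones, had 131.5 and 113.6 RPM. The NEDD8 enzyme Ube2m, the Ube2n partner Ube2v2 and the Fanconi anaemia enzyme Ube2t had means between 103.3 and 109.2 RPM. Ube2v1, Ube2j2 (an enzyme of the endoplasmic reticulum), Ube2r2, Ube2e3, Ube2f, Ube2z, Ube2q1, Ube2g1 and Ube2e1 ranged from 80.0 down to 31.4 RPM. Ube2j1, Ube2w, Ube2q2, Ube2d1, Ube2g2, Ube2d-ps and Ube2h had between 23.1 and 8.98 RPM, and a library then held as few as 1 to 20 reads. Reads of 2 members cannot be given to them with certainty: every transcript behind the 153 reads of Ube2v1 also carried reads named Gm20431, and both transcripts of Ube2e1 carried reads named Nkiras1.

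Tail lengths within the family spanned a wide range, and 4 members differed from the typical gene. The typical gene was defined as the median, within a library, of the median tails of all 1935 genes with at least 20 reads in each library, which came to 102.1 and 109.4 nt for WT 1 and WT 2 and to 109.97 and 101.96 nt for KO 1 and KO 2. Each gene's log2 ratio to it was tested over the 4 libraries with limma, with Benjamini-Hochberg adjustment over all 1935 genes and genotype as a covariate. Of the 4, 2 had longer tails, Ube2b and Ube2t, and 2 had shorter ones, Ube2s among them, and the other 10 members did not pass an adjusted p of 0.05. That is 4 of 14, where 35.1% of all genes passed, 16.7% as longer and 18.4% as shorter, so the share among the members was near that of all genes.

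Ube2b (ENSMUSG00000020390.12) had the longest tails of the 14 by the mean of its 4 library medians, though Ube2t was longer in WT 1 and KO 1 and Ube2k in KO 1. The median was 140.5 nt for WT 1 (72 reads) and 168.7 nt for WT 2 (47 reads), and 132.4 nt for KO 1 (83 reads) and 158.5 nt for KO 2 (46 reads). All 4 libraries stood above the typical gene, and in each of them Ube2b was longer than at least 88.5% of the genes tested. The mean log2 ratio was 0.50 (SE 0.08), a 1.41-fold longer tail (limma, adjusted p = 2.14e-09, from 1.56e-08 to 0.0255 over the alternatives). Tails of 150 nt or more were common among its reads: WT 1 had 41.7% (95% Wilson interval 31.0 to 53.2%), WT 2 had 68.1% (53.8 to 79.6%), KO 1 had 41.0% (31.0 to 51.7%) and KO 2 had 54.3% (40.2 to 67.8%). Over all genes the share of such reads was 18.8, 24.0, 23.7 and 19.6% in the same order.

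Its paralog Ube2a (ENSMUSG00000016308.12), which encodes the other RAD6 homolog, did not share this. Ube2a had medians of 87.8 and 123.7 nt in the WT libraries and 103.7 and 101.3 nt in the KO libraries, on both sides of the typical gene, with a mean log2 ratio of -0.03 (SE 0.08; limma, adjusted p = 0.774). Ube2b exceeded Ube2a by 52.7, 45.015, 28.7 and 57.2 nt, a mean of 45.9 nt ± 12.5 (SD, n = 4), and was longer in 4 of 4 libraries. This pair was compared after its values were seen, and the difference has no test of its own. The 2 genes had like read numbers, with 1.05 to 1.31 reads of Ube2b for each read of Ube2a.

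**Figure D2:**
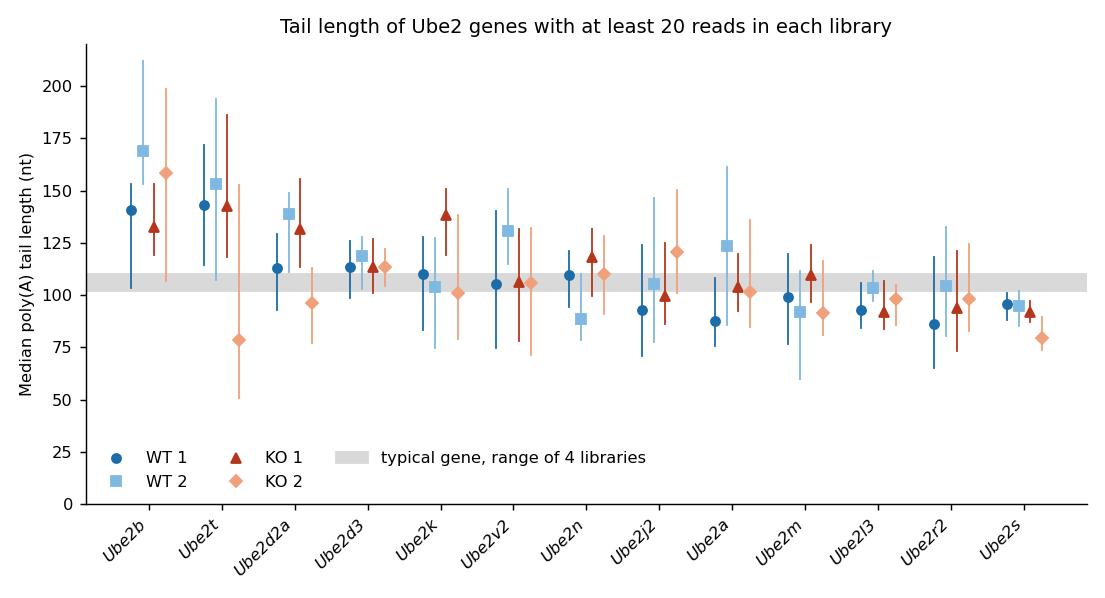
Median poly(A) tail length in nt of 13 of the 14 Ube2 genes with at least 20 reads in each library, ordered by their 4-library mean; each point is a library, each bar the 95% interval of the median from read order statistics, and the grey band spans the typical gene in the 4 libraries. Ube2b lies above the band in all 4 libraries and Ube2s below it in all 4, while Ube2t has 3 libraries above and KO 2 below.

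Ube2s, the most read member, had the shortest tails of the 14 by the same mean, though other members were shorter in single libraries. The WT libraries had medians of 95.5 and 94.9 nt and the KO libraries 91.9 and 79.3 nt, on 330 to 520 reads, so that its medians are the best measured of the family. Every library lay below the typical gene, with a mean log2 ratio of -0.23 (SE 0.05; limma, adjusted p = 6.70e-06, from 7.54e-07 to 0.0244 over the alternatives). Tails under 30 nt were 6.49 and 8.18% of its reads in the WT libraries and 3.27 and 6.82% in the KO libraries. Over all genes such reads were 2.35 and 3.02% in WT and 1.55 and 2.75% in KO, a lower share than that of Ube2s each time.

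Ube2t (ENSMUSG00000026429.9), which ubiquitinates the Fanconi anaemia proteins, had long tails in 3 libraries. WT 1, WT 2 and KO 1 had medians of 142.9, 153.1 and 142.6 nt, against 78.3 nt for KO 2, which held 20 reads (95% interval of the median 50.6 to 152.8 nt). In the limma test the standard error is that of genes with like read number, so the spread of Ube2t between its own libraries does not enter. The mean log2 ratio to the typical gene was 0.24 (SE 0.08; limma, adjusted p = 0.0135). It rests on which libraries enter: the value was 0.43 without KO 2, 0.05 with an adjusted p of 0.806 without KO 1, and 0.24 with an adjusted p of 0.298 without WT 2. Over the alternatives the limma adjusted p ran from 0.000931 to 0.806.

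**Figure D3:**
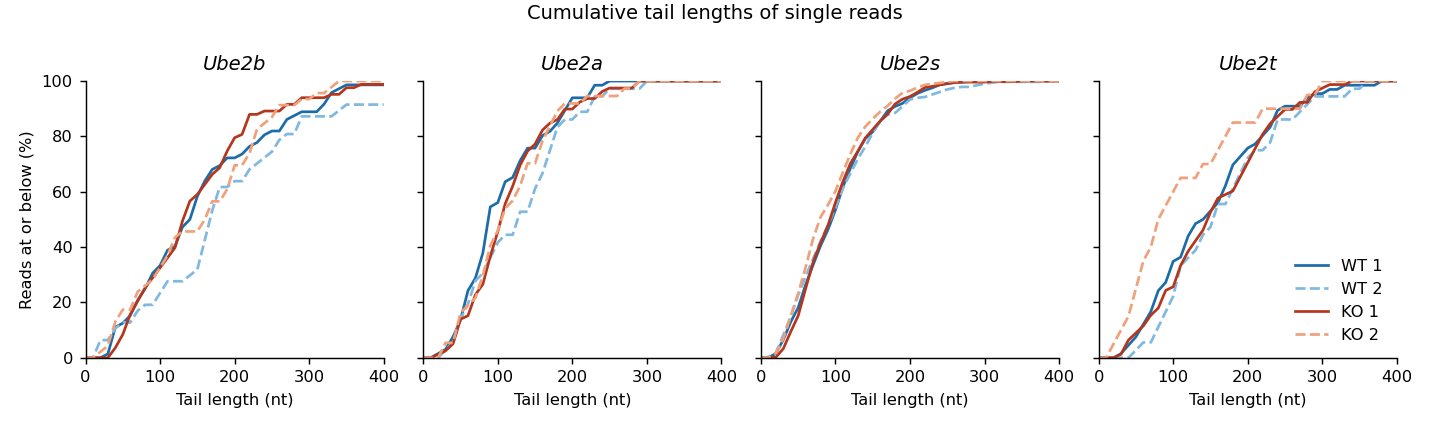
Cumulative share of reads, in percent, at or below a tail length up to 400 nt, for Ube2b, Ube2a, Ube2s and Ube2t; each line is a library. At 80 nt the Ube2s line of KO 2 stands at 50.8%, against 40.5% in WT 1, 42.1% in WT 2 and 41.5% in KO 1. The KO 2 line of Ube2t, from 20 reads, runs left of the other 3 libraries from 20 to 240 nt. Above that it crosses the lines of WT 1 and KO 1.

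The other members lay nearer to the typical gene. In the UBE2D class, Ube2d3 had 113.3 and 118.8 nt in WT and 113.3 and 113.3 nt in KO, above the typical gene in 4 of 4 libraries, with a log2 ratio of 0.12 (limma, adjusted p = 0.0810). Ube2d2a had 112.8 and 138.6 nt in WT and 131.7 and 96.2 nt in KO, a log2 ratio of 0.17 (adjusted p = 0.0515, limma). Ube2l3 was below the typical gene in 4 of 4 libraries, with 93.1 and 103.2 nt in WT and 92.0 and 98.1 nt in KO and a log2 ratio of -0.13 (limma, adjusted p = 0.0818). None of these 3 passed, and each did under some alternative: Ube2d2a under 3, Ube2d3 under 2 and Ube2l3 under 1 of 10.

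The remaining 6 of the 14 had adjusted p-values of 0.295 or more in this limma test. Ube2r2, which builds degradative chains with cullin ligases, had 86.3 to 104.4 nt and a log2 ratio of -0.15 (SE 0.11). Ube2m had 91.3 to 109.5 nt and a ratio of -0.11 (SE 0.08). Of the pair that forms an active complex, Ube2n had 88.6 to 118.3 nt (ratio 0.00486, SE 0.07) and its variant Ube2v2 had 105.1 to 130.7 nt (0.08, SE 0.08). Ube2k had 101.1 to 138.1 nt (0.09, SE 0.07), the higher value in KO 1 alone, and Ube2j2 had 93.0 to 120.6 nt (-0.02, SE 0.10).

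With a minimum of 10 reads in each library, a less strict setting, 7 more members could be fitted. Among them Ube2e3, a relative of the UBE2D class, passed as longer, with 132.9 and 132.3 nt in WT and 158.5 and 114.0 nt in KO, on 13 to 43 reads (log2 ratio 0.31, SE 0.11; limma, adjusted p = 0.0262). Ube2g1, an enzyme of protein quality control, and Ube2q1 had similar log2 ratios of 0.31 and 0.29 and did not pass (limma, adjusted p = 0.0579 for both). Ube2e1, Ube2f, Ube2v1 and Ube2z had log2 ratios from -0.17 to 0.04, with adjusted p-values of 0.185 or more. In that setting Ube2l3 passed too, with an adjusted p of 0.0459.

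Transcripts of 1 gene could be set against each other for 2 members. Among 211 genes whose 2 most read transcripts had at least 20 reads each in every library, limma called 12 (5.69%; 3.79% with the most read transcript longer and 1.9% with it shorter), and neither member was among them. The 2 most read transcripts of Ube2d3, ENSMUST00000197859.4 (32.5% of its reads) and ENSMUST00000166033.5 (24.1%), differed by 12.9, -28.4, 28.4 and -7.99 nt in WT 1, WT 2, KO 1 and KO 2. These differences had no common sign, and the mean log2 difference was 0.01 (SE 0.12; limma, adjusted p = 0.965). For Ube2l3, ENSMUST00000232139.1 (49.3%) and ENSMUST00000090192.11 (43.2%) differed by -0.460, 6.90, 1.77 and 14.7 nt (log2 difference 0.08, SE 0.09; limma, adjusted p = 0.775).

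The study's own question was whether loss of Mov10 changed tail length, and no member passed that test. The number of calls was 0 among the 14 members and 0 (0%) among all 1935 genes (limma, adjusted p = 0.9998 for each member), and 45 genes (2.33%) had an unadjusted p under 0.05, of which 1 was a member, Ube2t. Of the members 5 had a log2 change above 0 and 9 below 0, where 51.8% of all genes were above 0, and the median was -0.04 against 0.01 over all genes. The WT and KO libraries did not overlap for 1 member longer in KO, Ube2n, and for 3 shorter in KO, Ube2d3, Ube2s and Ube2t; over all genes this held for 14.7% and 11.8%. Between the nearest WT and KO libraries the gap was 0.0650 nt for Ube2d3, 0.290 nt for Ube2t, 0.530 nt for Ube2n and 3.04 nt for Ube2s.

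Ube2t had the largest change among the members, a log2 value of -0.48 (SE 0.18; unadjusted p = 0.00733 and adjusted p = 0.9998, limma, from 0.0791 to 0.9998 over the alternatives). WT averaged 148.0 nt ± 7.20 and KO 110.5 nt ± 45.5 (SD, n = 2 each), and KO 2 decided the value, which was -0.05 without it and -0.92 without KO 1. Ube2n had 109.8 and 88.6 nt in WT against 118.3 and 110.3 nt in KO, a log2 change of 0.21 (SE 0.16; limma, adjusted p = 0.9998). Ube2s averaged 95.2 nt ± 0.392 for WT and 85.6 nt ± 8.93 for KO (SD, n = 2 each), and the 95% interval of its log2 change of -0.16 ran from -0.39 to 0.08 (limma, adjusted p = 0.9998). The standard errors of the 14 members ran from 0.12 to 0.24, so that changes of the size seen for most of them could not be told from 0 at this depth.

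**Figure D4:**
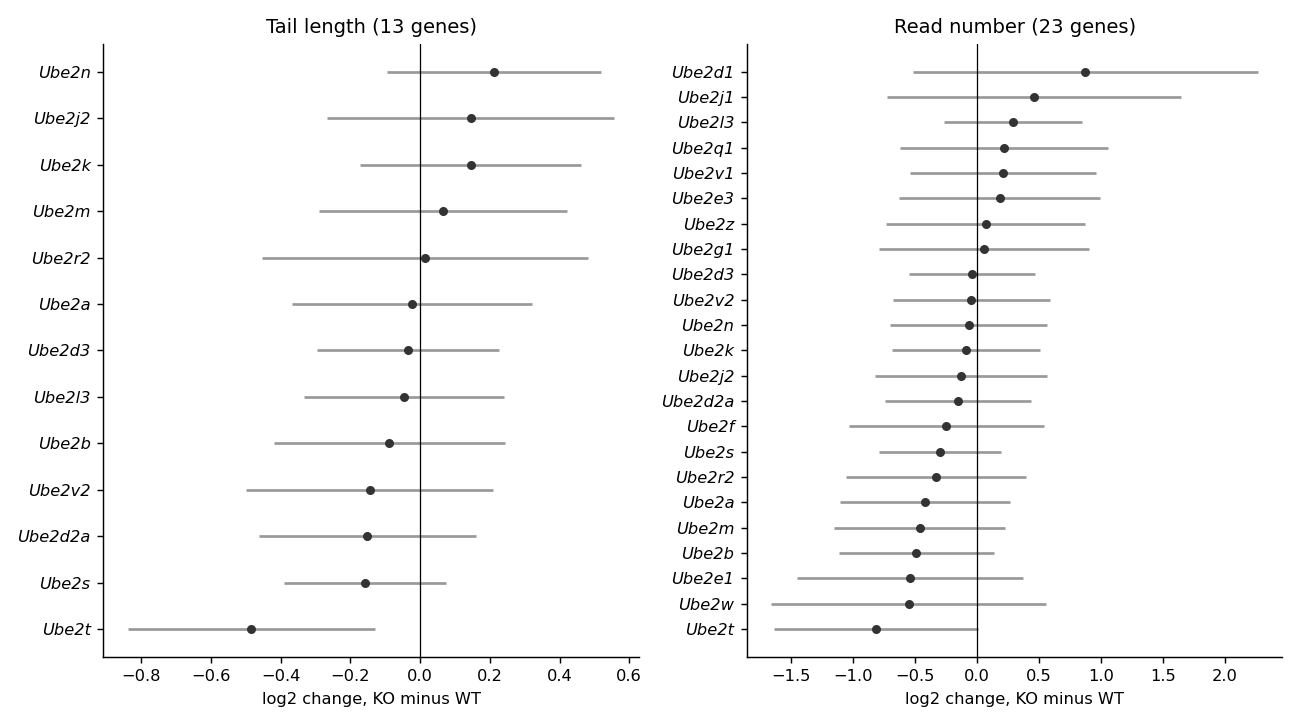
Log2 change, KO minus WT, with 95% interval from the limma fits, for the median tail length of 13 members (left) and the read number of 23 members (right). The tail interval of Ube2t, from -0.84 to -0.13, is the only one shown that does not hold 0, and it did not pass after adjustment over all genes.

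Read number did not set the genotypes apart either. In limma's voom test 0 of 24 members and 0 (0%) of 4815 genes passed an adjusted p of 0.05, and 0 members had an unadjusted p under 0.05, where 498 genes (10.3%) did. Of the members 8 had a log2 change above 0 and 16 below 0, where 49.4% of all genes were above 0, and the median was -0.09 against -0.01 over all genes. When libraries were scaled by their total reads the median was 0.03 for the members, 13 of them above 0 and 11 below, and 0.11 for all genes. The libraries did not overlap for Ube2d1 and Ube2j1, higher in KO, and for Ube2b, Ube2e1 and Ube2r2, lower in KO; over all genes this held for 20% and 20.5%.

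Ube2t came nearest to the threshold in read number as well. After median-of-ratios scaling the WT libraries had 166.4 and 100.04 RPM and the KO libraries 111.3 and 44.1 RPM, so the genotypes overlapped and KO 2 was lowest. Its log2 change was -0.81 (SE 0.39; unadjusted p = 0.0519, adjusted p = 0.490, limma, from 0.00990 to 0.998 over the alternatives), and it was -0.22 without KO 2. Without WT 2 the log2 change was -1.16, in a setting where 1 WT library remained and the spread came from the KO libraries alone.

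Both RAD6 homologs had log2 changes below 0 without passing. Ube2b had 181.5 and 130.6 RPM in WT and 118.4 and 101.5 RPM in KO on the same scale, a log2 change of -0.49 (SE 0.30; limma, adjusted p = 0.594, from 0.152 to 0.998 over the alternatives). The change was -0.24 without WT 1 and -0.71 without WT 2. Ube2a had 166.4 and 100.04 RPM in WT and 112.7 and 81.6 RPM in KO, a log2 change of -0.42 (SE 0.33; limma, adjusted p = 0.687). Ube2m had 133.6 and 113.9 RPM in WT and 69.9 and 121.3 RPM in KO, a log2 change of -0.46 (SE 0.33; limma, adjusted p = 0.655, from 0.315 to 0.9997), which was -0.02 without KO 1. Ube2f, the other NEDD8 enzyme, had a log2 change of -0.25 (SE 0.37; limma, adjusted p = 0.868), and the 3 genes of the Ube2n group had -0.07 to 0.21. Ube2w and the fitted genes of the UBE2D and UBE2E class, 6 in all, ranged from -0.55 (Ube2w) to 0.88 (Ube2d1), the latter on 5 to 20 reads a library.

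The deposited table also names Mov10 target classes by gene, the source of which is not given. Of the 32 members 16 (50.0%) were classed as Mov10 targets without m6A, a methyl mark on adenosines within messenger RNA, against 20.7% of all symbols. These 16 included all 7 most read members, from Ube2s to Ube2k, and the classes are not set against read number here. Ube2q1 and Ube2r2 (6.25%) were classed as targets with m6A, against 14.9% of all symbols. Non-targets were 11 members (34.4% against 42.5%), among them Ube2a, Ube2b and Ube2t, and 3 members had no class (9.38% against 21.9%).

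The wider pathway was examined through 81 other genes in lists of E1 enzymes, other E2 proteins, modifiers, ligases and deubiquitinases, of which 78 had reads. Against the typical gene, 7 of the 33 with enough reads had longer tails and 5 had shorter ones, a share near the 35.1% of all genes that passed. Among 4 activating enzymes or subunits, 3 were longer: Uba1, the main E1 for ubiquitin, with a mean of 124.9 nt ± 19.3 (SD, n = 4) and a log2 ratio of 0.23, Uba2 (SUMO) with 0.25 and Uba3 (NEDD8) with 0.33 (limma, adjusted p = 0.00909, 0.000820 and 0.000940). Sae1, the partner of Uba2, was not. With a library left out Uba1 had 0.11 without WT 2 (adjusted p = 0.324, limma) and 0.17 without KO 2, neither of which passed, and Uba3 fell short of the threshold without KO 2, with 0.22 (adjusted p = 0.190), and without WT 2 (adjusted p = 0.0511). Uba2 did so without KO 1 (adjusted p = 0.0575).

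The largest log2 ratio of these lists was that of Nedd4, a HECT ligase, at 0.68, with a mean tail of 169.0 nt ± 5.76 (SD, n = 4) (limma, adjusted p = 2.89e-20). Skp1a, a subunit of cullin ligases, was longer by a log2 ratio of 0.21 (limma, adjusted p = 0.000593). Rbx1, another such subunit, also passed as longer. Shorter tails were found for Cdc34, an E2 enzyme named outside the Ube2 series, with a log2 ratio of -0.23, and for the deubiquitinases Uchl5 and Uchl3, with -0.21 and -0.15 (limma, adjusted p = 0.00134, 0.0204 and 0.0353). The ubiquitin genes Ubb (-0.09) and Rps27a passed as shorter, each in 3 of 4 libraries. Ubb and Uchl5 passed in 4 and 5 of 9 alternatives and Uchl3 in 3 of 10, with limma adjusted p-values up to 0.506, 0.220 and 0.312, while Cdc34 passed in 8 of 10. The calls of Cdc34 and Skp1a ended without KO 1 and without KO 2, with adjusted p-values of 0.0681 or less (limma).

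Between the genotypes no gene of these lists passed either test: 0 of 33 for tail length and 0 of 61 for read number, of which 7 had an unadjusted p under 0.05, a share near the 10.3% of all genes. The smallest p-values for read number were those of the deubiquitinase Uchl1, with 181.5 and 152.8 RPM in WT and 81.3 and 77.2 RPM in KO, Anapc11, a subunit of the ligase that works with Ube2s, with 229.4 and 211.2 RPM in WT and 393.8 and 401.5 RPM in KO, and the modifier Sumo2, with 768.9 and 594.7 RPM in WT and 1056 and 1167 RPM in KO. In each the libraries of the genotypes did not overlap, and the log2 changes were -1.07, 0.85 and 0.71 (limma, adjusted p = 0.178, 0.205 and 0.277). The log2 change of Uchl1 was -1.18 without WT 2, and that of Sumo2 was 0.90 without WT 1. In these settings 1 WT library remained, and the spread came from the KO libraries alone. Ubb had 3776 and 2206 RPM in WT and 1769 and 1946 RPM in KO, and Uba1 had 168.9 and 105.6 RPM against 137.0 and 156.6 RPM. For tail length the smallest p-values were those of the deubiquitinase Usp7 (log2 change -0.43), Cdc34 (0.27) and Uchl1 (0.21), with an adjusted p of 0.9998 for each (limma).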

How the data were processed

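Poly(A) RNA selected on oligo(dT) beads was sequenced as native RNA (SQK-RNA002 kit, DeePlexiCon barcodes, R9 flow cells, MinION), per the labels' protocols; minimap2 2.20 is named in the submitters' processing notes. The basecaller, genome build, annotation and tail length tool are not given in the sources used here. The deposited table holds 1 row per read, 1903922 in all, each with a transcript, a symbol, a library and a tail length in nt, with no normalization recorded. The 3 reads without a length above 0 were left out.

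Tail length was tested with limma 3.58.1 (R 4.3.3) on log2 of the median per gene and library, using log2 of a gene's mean reads as the trend; a gene needed 20 reads or more in every library. Prior degrees of freedom were infinite, so a gene's standard error is that of genes with like read number. Reads per gene were counted from the table and tested with limma's voom (0.5 reads added, median-of-ratios scaling, mean of at least 10 reads). P-values were adjusted by Benjamini-Hochberg over all genes fitted, with a threshold of 0.05. In simulated data, planted log2 changes of 0.5 in tail length between genotypes were recovered in 80% and those of 1 in 100% of genes (1935 genes, 4 false calls); changes of 1 and 2 in read number were recovered in 14% and 75% (4815 genes, 4 false calls). Against the typical gene, planted changes of 0.5 were recovered in 100% (6 false calls), as they were between transcripts (2 false calls). All features in the tail simulations had the same spread, the median over genes, whatever their read number. Each simulation changed 200 genes, or 40 transcript pairs, which eases the adjusted threshold, whereas 0 genes passed between genotypes in the data. The recovered shares are therefore no measure of what the fits of the data could detect.

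Members and lists were chosen with earlier results of these data known. By the rule for named genes, the most read members, those with the longest and shortest tails, the 3 with the smallest p in each test of genotype, and genes past a threshold are given with their values; some genes that entered the fits and counts are not reported here. Alternatives changed the tail summary, the read minimum, the scaling or centring, the transcripts used and the replicate block, and left out each library in turn. Leaving out a library left 1 library in its genotype, so the spread within that genotype was not measured. Python 3.11.15, numpy 2.4.6, pandas 2.3.3, scipy 1.17.1 and matplotlib 3.10.9 were used.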

Additional observations from a re-analysis of the deposited data

How the results depend on the processing

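Over all genes, the count of tail length calls between genotypes was 0, and 1 when 10 reads sufficed; with a library left out it ranged from 0 to 2. The count of read number calls was 0, and 7 under scaling by total reads, 96 without a filter on low read number and 66 with the replicate block; with a library left out it ranged from 0 to 367. Members among these calls numbered 0, and from 0 to 1 (Ube2t, without WT 2) with a library left out. The median change over members ranged from -0.122 to 0.0147 for tail length and from -0.279 to 0.00762 for read number with a library left out. Calls against the typical gene numbered 679, and 371 with at least 50 reads (855 genes tested) and 305 to 720 with a library left out. Members among them numbered 4, 2 with the replicate block (Ube2b and Ube2s), and 2 to 5 with a library left out. Calls between transcripts numbered 12, 24 with the mean of log2 lengths and 0 with the replicate block, and 8 to 18 with a library left out.

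Values that were near 0 against the typical gene changed sign: Ube2a was 0.00479 and Ube2j2 0.0534 with the mean of log2 lengths, and 0.0240 and 0.0353 when centred on all reads. Ube2n was -0.00285 with the mean of log2 lengths, -0.0190 with at least 10 reads and -0.00596 on transcripts with a single symbol. With a library left out, Ube2a ranged from -0.136 to 0.0577, Ube2j2 from -0.121 to 0.0745 and Ube2n from -0.104 to 0.103, and the transcript difference of Ube2d3 from -0.119 to 0.142. The share of reads on members, KO minus WT, was -0.00719 percentage points, and -0.0575 when members and total were limited to transcripts with a single symbol. The share itself was higher with that limit, at 0.812 and 0.724% in WT and 0.679 and 0.743% in KO, so the 2 differences have unlike bases. Among the members the limit left out 153 reads of Ube2v1, 59 of Ube2e1 and 1 of Ube2z. The higher share therefore came from a smaller total. With that limit WT 2 still lay inside the range of the KO libraries, but WT 1 lay above both of them. Why the difference between the genotypes changed was not tested.

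The replicate block, which pairs libraries by number only, ended 2 of the 4 members' calls against the typical gene, that of Ube2t among them (limma, adjusted p = 0.0813), and made or ended no other call among the members. Same-numbered WT and KO libraries did not deviate together (correlation across genes 0.0135 for tail length and 0.0155 for read number), so the numbers were not treated as pairs. Depth limits the rest: 18 members had fewer than 20 reads in at least 1 library.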

Other observations

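Reads were shared differently among transcripts of several members in WT 1. The second most read transcript of Ube2s, ENSMUST00000206139.1, had 8 of 447 reads in WT 1, against 22 of 330 in WT 2, 40 of 520 in KO 1 and 25 of 425 in KO 2. ENSMUST00000106291.9 of Ube2d3 had 30 of 190 reads in WT 1, against 10 of 164 in WT 2, 16 of 303 in KO 1 and 11 of 218 in KO 2. The most read transcript of Ube2k had 59 of 73 reads in WT 1. It had 25 of 51 in WT 2, 51 of 100 in KO 1 and 44 of 75 in KO 2. That of Ube2d2a had 68 of 78 reads in WT 1. It had 41 of 57 in WT 2, 85 of 118 in KO 1 and 46 of 68 in KO 2. In these cases WT 1 stood apart from the other 3 libraries, WT 2 included, so the pattern was not particular to Ube2s and Ube2d3. These transcripts were picked after their values were seen, and the differences were not tested.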
